A study of Mus musculus with 22 samples.

Results

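Snora75 is an H/ACA small nucleolar RNA (snoRNA) that mouse cells make from an intron of the nucleolin gene, Ncl. It is 1 of the 72 features of a custom nCounter code set, an assay that counts barcoded probes bound to RNA and uses no amplification step. Its row was found by matching the RefSeq transcript ID NR_028478, without version and offset, to the symbol Snora75, and it was chosen by its measured values in these data: its wide spread between replicates and its differences in both differentiation comparisons. Those values are therefore given as a description, with no test.

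Total RNA came from 22 mouse samples in 7 groups. Cardiomyocytes at day 16 (n = 3) were differentiated from embryonic stem cells (ESCs) through embryoid bodies and selected with puromycin, and ESCs at day 0 (n = 3) are the same line, labelled aMHC-puro. Set B (n = 3) and set A (n = 3) are ESCs of a retinoic acid experiment whose label fields contradict each other. Set B is titled as plain ESCs but described as given retinoic acid at time 6, while set A is titled as retinoic acid ESCs but described as untreated at time 0, so the direction of treatment is not settled here and the sets go by these names. The study names its ESCs as E14Tg2a. The other groups are primary spermatogonial stem cells (SSC, n = 4), the stem cells of the male germline, RAW264.7 macrophages (n = 3) and NIH3T3 fibroblasts (n = 3), the last 2 being established lines. No treatment field is given for these 3 groups, but each SSC description ends in +G, which no source explains. SSC samples 2, 3 and 4 also share a number there and may share a source. For the other groups nothing in the labels tells whether replicates come from separate cultures or animals. The p-values thus reflect variation among these samples only, and that variation may be technical. The table holds snoRNAs and no marker genes, so the labelled cell types could not be checked against their markers.

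H/ACA snoRNAs are short RNAs with a hairpin-hinge-hairpin-tail shape. They assemble with the pseudouridine synthase dyskerin and the proteins Nop10, Nhp2 and Gar1, and most guide the conversion of chosen uridines of ribosomal RNA to pseudouridine. Most vertebrate snoRNAs have no promoter of their own. They are cut and trimmed out of introns of a host transcript, so the amount of a snoRNA depends on transcription and splicing of the host and on the stability of the snoRNA with its proteins. Nucleolin, the host product here, is one of the most abundant proteins of the nucleolus and acts in transcription and processing of ribosomal RNA. The level of Ncl mRNA was not analysed here.

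The promoter of Ncl is shown because transcription of the RNA that carries Snora75 starts there. The 250 bases before the start, at chr1:86359456-86359705 on the minus strand in RefSeq's GRCm38.p6, read as follows, with matches to the GC box GGGCGG or its reverse complement CCGCCC in capitals.
Ncl promoter: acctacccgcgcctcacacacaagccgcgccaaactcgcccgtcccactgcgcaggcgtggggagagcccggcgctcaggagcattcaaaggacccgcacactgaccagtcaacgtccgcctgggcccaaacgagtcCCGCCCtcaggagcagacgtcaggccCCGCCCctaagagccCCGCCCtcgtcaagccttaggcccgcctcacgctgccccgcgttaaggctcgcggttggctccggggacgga
The window holds 3 matches, all as CCGCCC on this strand and none overlapping another. At least 1 match on either strand is present in 32.7% of the 32851 mouse promoter windows of this length in the same table. G and C make up 69.6% of the Ncl window, against a median of 52.4% over all windows. A match of letters is a description and not a binding site.

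Values are the authors' normalized counts, with totals per sample between 1045169 and 1668320. In every sample all values were whole multiples of 1 step between 0.8995 and 1.22 (tolerance 0.02), as whole counts multiplied by a single factor would be. The origin of that factor is not stated in the labels or the file. The lowest Snora75 value then stands for 2123 whole counts, with a 95% Poisson interval of 2234 to 2434 normalized counts around 2332. Such intervals cover counting error only. They were far narrower than the differences between replicates in set B and in cardiomyocytes, but not in every group. Those of SSC samples 3 (14991 to 15485) and 4 (14834 to 15291) overlapped. The part of counting error in the spread was not tested. SSC, RAW264.7 and NIH3T3 share a part of the table in which 5 features are blank, and the other 12 samples hold values for all 72. The sources do not tell if the parts were processed apart, so a difference between a group of one part and a group of the other cannot be told apart from the part.

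Across all samples Snora75 ranged from 2332 to 33612 normalized counts, a 14.4-fold range, and both ends lay in ESC set B. The 7 group means spanned 2.28-fold on the log2 scale. By that mean the order from high to low was RAW264.7, SSC, ESCs at day 0, set A, set B, NIH3T3 and cardiomyocytes. Every neighbour in this order overlapped the next in its samples, with gaps of 0.0167 to 0.321 log2 units. Of the 21 pairs of groups 3 did not overlap, and NIH3T3 was the lower group in all 3, against RAW264.7, SSC and ESCs at day 0. Of the 67 features without blanks, 64.2%, 73.1% and 53.7% separated NIH3T3 from these 3 groups in the same order, and ESCs at day 0 lie in the other part of the table.

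**Figure D1:**
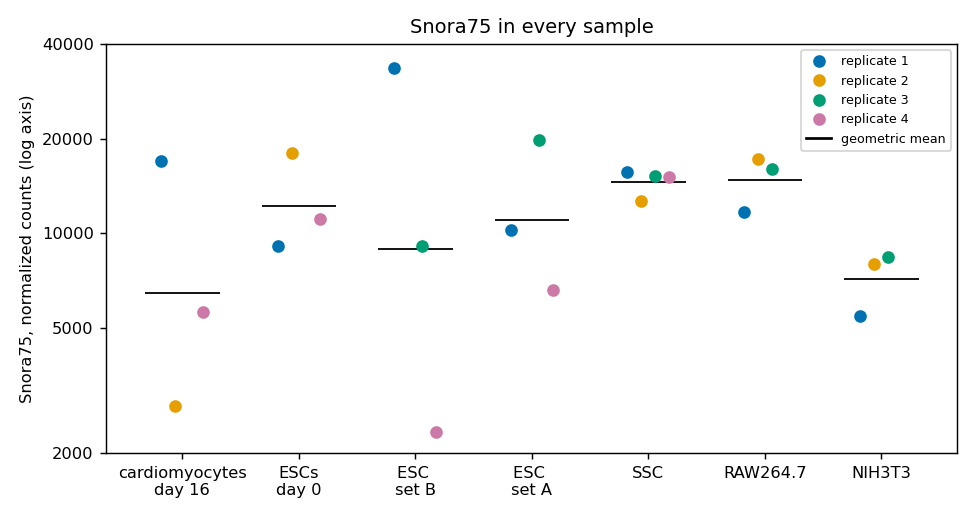
Snora75 in normalized counts (log axis) in each of the 22 samples by group; points are samples coloured by replicate number and bars are geometric means. Set B spreads from 2332 to 33612 while the 4 SSC samples lie between 12657 and 15658.

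Replicates of SSC, RAW264.7 and NIH3T3 lay closer together than those of the ESC-derived groups. SSC samples had 15658, 12657, 15236 and 15061 normalized counts, a mean of 14653 ± 1354 (SD, n = 4). RAW264.7 samples had 11670.3, 17225 and 16039, a mean of 14978 ± 2925 (SD, n = 3). NIH3T3 samples had 5448, 7996 and 8425, a mean of 7289.6 ± 1609.6 (SD, n = 3). All SSC and RAW264.7 samples were thus above all NIH3T3 samples, while SSC and RAW264.7 overlapped. SSC and RAW264.7 were separated by 61.2% of the 67 features. In such bulk samples fewer cells that make an RNA and less of it per cell cannot be told apart.

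The levels of these 10 samples enter neither differentiation comparison, and they were tested with limma on log2(normalized count + 1), Benjamini-Hochberg adjustment over the 67 features without blanks and a threshold of 0.05. Their spread is part of the values that chose Snora75, and a lower level in NIH3T3 was known from earlier results on these data, so the p-values are not independent evidence. Snora75 differed across the 3 types (moderated F of 21.2, limma adjusted p 3.83e-05), as did 88.1% of all features, and it stood at place 29 of 67 by p. It was 2.04-fold higher in SSC than in NIH3T3 (log2 difference 1.03 ± 0.18 SE, 95% interval 0.66 to 1.40, limma adjusted p 4.51e-05). In that comparison 76.1% of features passed, 41.8% as higher and 34.3% as lower in SSC, and the median difference over all features was 0.19. With SSC samples 2, 3 and 4 averaged to 1 sample the log2 difference was 1.06 (limma adjusted p 0.0013). RAW264.7 was 2.06-fold higher than NIH3T3 (log2 difference 1.04 ± 0.19 SE, limma adjusted p 0.000148), where 55.2% of features passed, 43.3% as higher and 11.9% as lower in RAW264.7, and the median difference was 0.34. By size Snora75 was at place 20 of 67 for SSC against NIH3T3, 65 for SSC against RAW264.7 and 9 for RAW264.7 against NIH3T3.

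Between SSC and RAW264.7 no difference in Snora75 passed the test. The log2 difference was −0.02 ± 0.18 SE (limma adjusted p 0.94), with a 95% interval of −0.39 to 0.35, or 0.766 to 1.28-fold. In this comparison 65.7% of features passed, 23.9% as higher and 41.8% as lower in SSC, and the median difference was −0.07. Both calls against NIH3T3 rest on the spread within these 3 groups. When all 7 groups shared 1 estimate of the spread, the F-test (limma adjusted p 0.27), SSC against NIH3T3 (0.17) and RAW264.7 against NIH3T3 (0.25) did not pass. Under quantile normalization both still passed, at smaller log2 differences of 0.64 (limma adjusted p 0.017) and 0.59 (limma adjusted p 0.044).

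**Figure D2:**
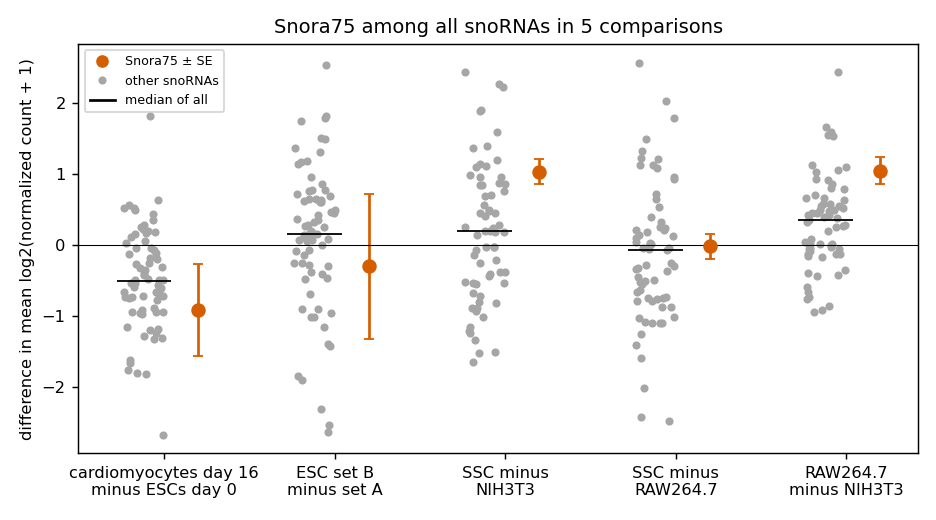
Difference in mean log2(normalized count + 1) of Snora75 (orange, ± SE) and of the other snoRNAs (grey) in 5 comparisons, with the median of all features as a bar. Snora75 lies at 1.03 and 1.04 over NIH3T3, near 0 between SSC and RAW264.7, and its SE reaches 0.65 and 1.03 in the 2 ESC comparisons.

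The differentiation groups gave wide ranges. Cardiomyocyte samples had 16952, 2839.6 and 5640.4 normalized counts (replicates 1, 2 and 4), with a mean of 8477 ± 7472 (SD, n = 3). ESCs at day 0 had 9121, 18059.8 and 11101 in replicates 1, 2 and 4, with a mean of 12761 ± 4695 (SD, n = 3). Cardiomyocyte replicates 2 and 4 lay below all ESC samples and replicate 1 lay among them, so the groups overlapped, whereas 52.8% of the 72 features separated them. The log2 difference, cardiomyocytes minus ESCs at day 0, was −0.92 ± 0.65 SE, against a median of −0.51 over all 72 features, of which 30.6% passed the test, 1.39% as higher and 29.2% as lower. This SE is limma's moderated one, drawn toward the spread of all features. It is smaller than the SE from the Snora75 replicates alone. Without cardiomyocyte replicate 2 the difference was −0.32, and without replicate 1 it was −1.61. Centred on each sample's median it was −0.10, on the mean −0.42.

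The replicate numbers in the descriptions did not bring the samples into one direction. Snora75 was 1.86-fold higher in cardiomyocytes than in ESCs at day 0 for number 1, 6.36-fold lower for number 2 and 1.97-fold lower for number 4. Cardiomyocyte replicate 2, the lowest, carries the number of the highest ESC sample.

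ESC set B had 33612, 9133 and 2332 normalized counts in replicates 1, 3 and 4 of the descriptions, with a mean of 15026 ± 16451 (SD, n = 3). Set A had 10230.5, 19818 and 6631 in the same replicates, with a mean of 12227 ± 6816 (SD, n = 3). The highest and the lowest samples of the 6 were both in set B, and all 3 samples of set A lay between them; 55.6% of the 72 features separated the sets. The log2 difference, set B minus set A, was −0.30 ± 1.03 SE, against a median of 0.16 over the 72 features, of which 45.8% passed. This SE, moderated in the same way and likewise smaller than that from the replicates alone, was the largest of all 72 features, where the median SE was 0.19. The difference was 0.67 without set B replicate 4, 0.12 without set A replicate 3 and −1.26 without set B replicate 1, so its sign turns with single samples. By described number it was 3.29-fold higher in set B for number 1, 2.17-fold lower for number 3 and 2.84-fold lower for number 4.

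The spread between replicates is among the values that chose Snora75. Its pooled SD over the 7 groups was 0.93 log2 units, the largest of the 67 features without blanks and 3.44 times their median of 0.27. Group SDs were 1.30 in cardiomyocytes, 0.51 in ESCs at day 0, 1.92 in set B and 0.80 in set A, placing Snora75 at 3, 6, 2 and 2 of 67 within these groups. The median SDs of the 67 features there were 0.39, 0.22, 0.22 and 0.12 in the same order. In the 3 cell types the SDs of Snora75 were 0.14 in SSC, 0.30 in RAW264.7 and 0.34 in NIH3T3, at places 56, 14 and 1. The spread was thus wide in the ESC-derived samples and below the median SD of 0.21 in SSC. It was also above the median SD in RAW264.7 (0.30 against 0.15) and in NIH3T3 (0.34 against 0.14). Set B alone gave 56.8% of the sum of squares within groups and cardiomyocytes gave 25.9%. Without set B the pooled SD was 0.66 (place 2 of 67), and without set B and cardiomyocytes it was 0.45 (place 6).

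Snora75 was chosen for its spread and had the widest of the 67 features, so features of a similar signal had to be narrower. Those nearest to it are given as a description. Next below Snora75 in mean log2 signal were Snora64, from the ribosomal protein gene Rps2, with a pooled SD of 0.48, and Snora34, from Kansl2, with 0.27. Next above were Snora7a, from Rpl32, with 0.25 and Snora33, from Rps12, with 0.40. The widest spreads after Snora75 belonged to ENSMUST00000082962 (0.91), ENSMUST00000104376 (0.81), ENSMUST00000083729 (0.66) and Snora81 (0.65), which lies in Eif4a2, the gene of an RNA helicase of translation initiation. The first 3 carry transcript IDs that the RefSeq table does not pair with a name.

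**Figure D3:**
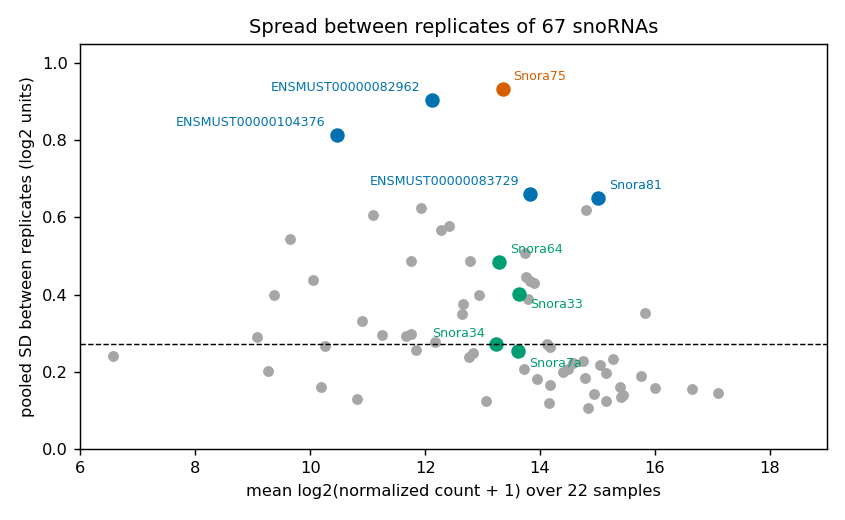
Pooled SD between replicates (log2 units) against mean log2(normalized count + 1) over 22 samples for 67 snoRNAs, with the median SD as a dashed line. Snora75 (orange) is highest at 0.93; the other 4 widest features are blue and its neighbours in signal are green.

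The deviations of Snora75 from its group means were shared by some snoRNAs. Over all 22 samples, Pearson's r of the deviations was 0.97 with ENSMUST00000082962 (Spearman's rho 0.84), 0.96 with ENSMUST00000083729 (0.88) and 0.93 with ENSMUST00000083274 (0.82). These values describe likeness and carry no p, since all features of a sample share its RNA, hybridisation and normalization factor. Of the 66 other features, 8 had an r over 0.8 and 22 had one below 0, with a median of 0.26. After mean centring 4 had an r over 0.8 and the median was −0.32. Among features with a symbol the highest were Snora81 (0.86) and Snora15 (0.85), from the chaperonin gene Cct6a, both singled out after their values were seen. After mean centring these were 0.79 and 0.62, after median centring 0.73 and 0.21, and without set B and cardiomyocytes 0.80 and 0.44. For levels, without removing group means, the 3 most alike over 22 samples were ENSMUST00000083729 (r 0.89), ENSMUST00000082962 (0.88) and ENSMUST00000104238 (0.74).

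The values by sample show the shared order. ENSMUST00000082962 had 15017, 5854 and 999.69 normalized counts in replicates 1, 3 and 4 of set B, and ENSMUST00000083729 had 28326, 10580.4 and 4750.2. In cardiomyocyte replicates 1, 2 and 4, ENSMUST00000082962 had 8535, 1563 and 2711, and ENSMUST00000083274 had 40405, 7960.2 and 16949. In set B all of these were highest in replicate 1 and lowest in replicate 4, and in cardiomyocytes they were highest in replicate 1 and lowest in replicate 2, as was Snora75. Snora81 kept the order in set B, with 88003, 39634 and 17890.1, but in cardiomyocytes its lowest sample was replicate 4 (64776, 34501 and 28317 in replicates 1, 2 and 4).

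**Figure D4:**
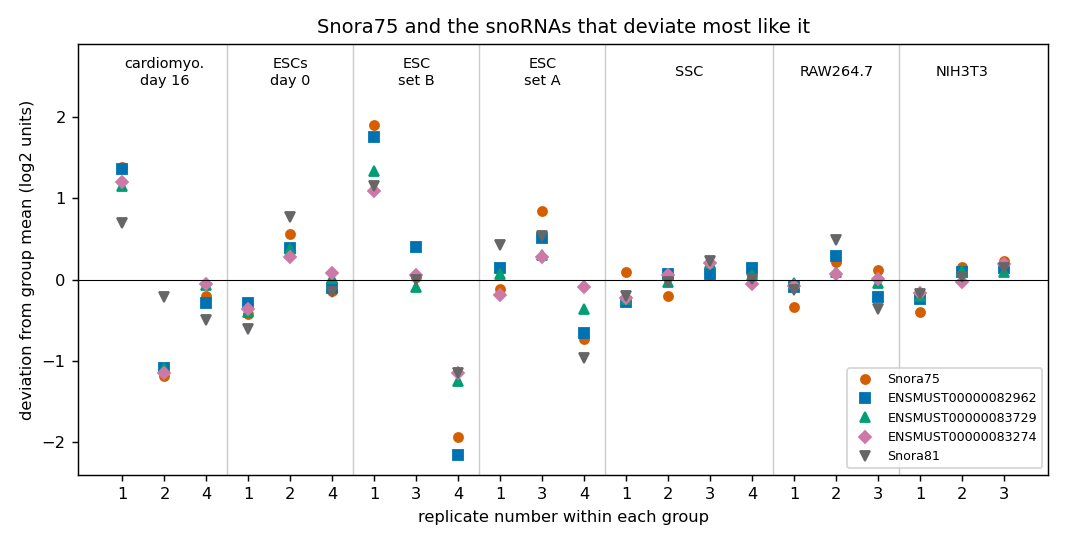
Deviation from the group mean (log2 units) of Snora75 and 4 other snoRNAs in each of the 22 samples, by group and replicate number. Snora75 deviates by 1.91 and −1.94 in replicates 1 and 4 of set B and by 1.39 and −1.19 in replicates 1 and 2 of the cardiomyocytes, and the other 4 deviate the same way.

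Much of this likeness rests on 2 groups. Without set B and cardiomyocytes the r with ENSMUST00000082962 was 0.84, with ENSMUST00000083729 0.82 and with ENSMUST00000083274 0.69, and 2 features stayed over 0.8 with a median of −0.02 over the 66. Within SSC, RAW264.7 and NIH3T3 alone the 3 values were 0.46, 0.51 and 0.42. Without the 2 samples in which Snora75 deviated most, replicates 1 and 4 of set B, they were 0.94, 0.93 and 0.88. A lone set B sample cannot deviate from its own mean, so these values equal those without set B.

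Sample totals moved the same way as Snora75 in cardiomyocytes, set A and both ends of set B, but not in every sample. The r of the Snora75 deviations with those of the log2 total was 0.69 over 22 samples. Set B replicate 1 had the highest total of all (1668320) while replicate 4 had the lowest of its group (1323727). Replicate 1 of ESCs at day 0 had the highest total of its group (1621106) but the lowest Snora75 value (9121). SSC replicate 4 had the lowest total of all (1045169), with Snora75 0.04 log2 units above its group mean. As a share of the total, Snora75 had a 5.15-fold range in cardiomyocytes and 2.03-fold in ESCs at day 0, against 5.97-fold and 1.98-fold as deposited. In set B the range was 11.4-fold and in set A 2.80-fold, against 14.4-fold and 2.99-fold as deposited. With each sample's mean log2 value subtracted, the pooled SD of Snora75 was 0.81, the largest of the 67, against 0.93 as deposited. The r values with the 3 most alike features were then 0.95, 0.94 and 0.90. The part of the totals in the spread was not tested. The first principal component of the deviations of the 66 other features held 52.0% of their variance, and its scores had an r of 0.90 with the deviations of Snora75. Its largest scores were in replicates 1 and 4 of set B (0.52 and −0.45) and replicates 1 and 2 of cardiomyocytes (0.50 and −0.37). Scores had the same sign as Snora75 in all NIH3T3 samples and the opposite sign in all RAW264.7 samples. RNA quality and hybridisation records were not analysed here, and their part in the spread was not tested.

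By host class Snora75 stands alone: no other measured feature with a symbol lies in a gene of the list of nucleolar and ribosome assembly proteins. The list of translation factor hosts was set by symbol as Eif, Eef or Tpt1, the last added by name, and holds 4 snoRNAs. Of these, Snora81 and Snora41 (from Eef1b2, an elongation factor gene) were higher in SSC than in NIH3T3, with log2 differences of 1.59 ± 0.18 and 1.20 ± 0.26 SE (limma adjusted p 3.4e-07 and 0.00038). Snora28 (from the initiation factor gene Eif5) and Snora31 (from Tpt1) were lower, at −0.72 ± 0.14 and −0.37 ± 0.14. In RAW264.7 against NIH3T3, Snora41 (1.10 ± 0.28) and Snora31 (0.42 ± 0.15) were higher, while Snora28 (0.03) and Snora81 (−0.43) did not pass. In SSC against RAW264.7, Snora81 was higher (2.03 ± 0.18), Snora28 (−0.75 ± 0.14) and Snora31 (−0.80 ± 0.14) were lower, and Snora41 (0.09) did not pass. Over all features 41.8% were higher and 34.3% lower in SSC than in NIH3T3. The shares were 43.3% and 11.9% for RAW264.7 against NIH3T3, and 23.9% and 41.8% for SSC against RAW264.7. Calls among 4 members are too few to read as a trait of the class.

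Features in ribosomal protein genes were called in both directions. Of 12 snoRNAs in ribosomal protein genes, 4 were higher and 2 lower in SSC than in NIH3T3 (median 0.27, against 0.19 over all features), and 4 were higher and 1 lower in RAW264.7 than in NIH3T3 (median 0.05, against 0.34). Over all features 41.8% and 43.3% were higher, and 34.3% and 11.9% lower, in these 2 comparisons. Between SSC and RAW264.7 the counts were 4 higher and 2 lower (median 0.16, against −0.07), beside 23.9% and 41.8% of all features. Of 9 in non-coding host genes, 8 were lower in SSC than in NIH3T3 and the other, Snora78, did not pass (median −0.67, against 0.19), beside 34.3% of all features lower. In this class 1 was higher and 6 lower in SSC than in RAW264.7 (median −0.49, against −0.07), beside 41.8% of all features lower. In RAW264.7 against NIH3T3, 1 was higher and 4 were lower (median −0.40, against 0.34), beside 43.3% of all features higher and 11.9% lower. That background depends on scaling, from 8 features lower as deposited to 15 after median and 21 after mean centring. Class counts were not taken under these scalings. Snora78 lies in Rps2 and in Snhg9 and counts in both classes. Some members share a host: Snora64 also lies in Rps2, Snora17 and Snora43 lie in Snhg7, and Snora16a and Snora44 in Snhg12. The counts are thus of snoRNAs and not of separate host genes.

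The counts of called features in both ESC comparisons change with the scaling of the samples. In cardiomyocytes against ESCs at day 0, 3 of 12 snoRNAs in ribosomal protein genes (median −0.50) and 5 of 9 in non-coding host genes (median −0.68) were lower. So was 1 of 4 on the translation factor list (Snora31, −0.77 ± 0.20, limma adjusted p 0.033). Of all features 29.2% were lower, with a median of −0.51. The other 3 on that list did not pass, Snora41 at −0.95, Snora28 at 0.23 and Snora81 at 0.15. In set B against set A the counts were 3 higher and 2 lower of 12 (median 0.22), 1 higher of 4 (Snora28, 1.18 ± 0.14, limma adjusted p 0.0016) and 3 lower of 9 (median −0.07), beside 29.2% of all features higher and 16.7% lower. Snora31 (0.42), Snora41 (0.77) and Snora81 (0.36) did not pass there.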

How the data were processed

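H/ACA snoRNAs were measured with a custom NanoString nCounter code set in 22 mouse samples; per the labels' protocols, Trizol extraction was followed by DNase and column purification. The deposited table holds a non-negative signal per feature and sample, here called normalized counts. The authors' normalization, software and background treatment are not stated in the labels or the file. Of 72 features 34 matched a symbol in RefSeq's table of GRCm38.p6 and 38 are named by ID; the host is the gene that encloses the snoRNA there. No build is named for the data. Sequence was copied from RefSeq.

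Values were used as log2(value + 1) without further scaling. Two-sided tests came from limma 3.58.1 under R 4.3.3, through lmFit and eBayes, with p-values adjusted by Benjamini-Hochberg: SSC, RAW264.7 and NIH3T3 in 1 model over 67 features, and each ESC comparison on its own 6 samples over 72. Each SE is the moderated one of its fit. The code was tested on simulated data. Deviations are log2 values minus their group mean. Host lists were set by symbol: Rpl or Rps; Eif, Eef or Tpt1; Snhg, Gas5 or Dancr; and 14 nucleolar or assembly genes. Named features were Snora75, the 3 most alike by level and by deviation, the 5 with the widest spread, the 2 nearest in signal on each side and members of small host lists; any other is said to be chosen after its values were seen. The gene, lists and tests were chosen with earlier results of these data known.

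Same-numbered samples did not consistently deviate together. The r of their deviations ran from −0.27 to 0.14 in cardiomyocytes and ESCs at day 0. In sets B and A it ran from −0.36 to 0.33 by description and from −0.63 to −0.16 by title. In RAW264.7 and NIH3T3 it ran from −0.23 to −0.11. With so few samples per group these values cannot decide whether the numbers pair samples, and the main fits used no pairing. Alternatives were other scalings, pseudocount, filter, fits, replicate blocks and leaving out each replicate.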

Additional observations from a re-analysis of the deposited data

How the results depend on the processing

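Snora75 was above NIH3T3 in SSC and in RAW264.7 and passed the F-test under every alternative run except 1 shared spread of all 7 groups, where the log2 differences stayed 1.03 and 1.04 but F was 1.51 and none passed. Leaving out 1 replicate gave 0.83 to 1.15 for SSC against NIH3T3, 0.85 to 1.22 for RAW264.7 against NIH3T3 and F of 12.3 to 30.4, all passing. These runs reuse samples whose spread and lower NIH3T3 level were known beforehand, so passing is not independent evidence. SSC against RAW264.7 had no stable sign: 0.18 centred on the median log2 value, 0.12 on the mean, 0.0476 under quantile normalization, 0.26 scaled to equal totals, 0.0194 with SSC samples 2, 3 and 4 averaged (their descriptions share a number), and −0.187 to 0.0941 leaving out 1 replicate; it passed in none. The pooled SD of Snora75 was 0.73 after median centring, 0.66 without set B, 0.45 without set B and cardiomyocytes (these 2 chosen after seeing the data) and 0.73 to 0.97 leaving out 1 replicate, lowest without replicate 4 or 1 of set B. The log2 difference between cardiomyocytes and ESCs at day 0 ran from −1.61 to −0.32 leaving out 1 replicate and was −0.10 after median centring; that between sets B and A ran from −1.26 to 0.67.

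Counts of features called by limma depend on more. For cardiomyocytes against ESCs at day 0, 22 passed (1 higher, 21 lower), against 6 (5 higher, 1 lower) after median centring, 3 under quantile normalization (all higher), 38 with all 7 groups, 8 with the replicate block, and 0 centred on the mean or scaled to equal totals (22 and 23 at an unadjusted p under 0.05). Leaving out 1 replicate gave 0 to 34, with 34 without cardiomyocyte replicate 1, 7 without replicate 2, and 0 without replicate 4 or any ESC sample (21 to 30 at an unadjusted p under 0.05). For set B against set A, 33 passed, against 20 under quantile normalization (10 higher, 10 lower), 14 with the replicate block by description, 15 with the replicate block by title, and 17 to 36 leaving out 1 replicate, lowest without set A replicates 3 (17), 1 (18) and 4 (21). Mean centring gave 12 higher and 13 lower there, against 21 and 12. In RAW264.7 against NIH3T3 the split of 29 higher and 8 lower became 19 and 15 by median and 19 and 21 by mean centring and 19 and 14 by quantile normalization, and in SSC against RAW264.7 16 and 28 became 24 and 25, 24 and 27, 23 and 25, and 27 and 26 with equal totals. For SSC against NIH3T3 the split was 28 and 23, and 35 and 21 with equal totals. The replicate block kept RAW264.7 against NIH3T3 at 1.04 for Snora75 (limma adjusted p 5.4e-05). A count model on whole counts was planned and not run. The causes of these changes were not tested.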

Other observations

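Some snoRNAs deviated against Snora75 between replicates. Over the 22 samples the lowest r of deviations was −0.56 (ENSMUST00000083703), and among features with a symbol the lowest were Snora30, from Srcap (−0.48), and Snora7a, from the ribosomal protein gene Rpl32 (−0.47). Hosts of the same class fell on both sides: Snora64, from Rps2, had an r of 0.78 and Snora65, from Rpl12, 0.72. Without set B and cardiomyocytes these values were −0.14 for ENSMUST00000083703, −0.20 for Snora30, −0.38 for Snora7a, 0.18 for Snora64 and −0.09 for Snora65. Among features with a symbol, the lowest changed with the setting. It was Snora21 (−0.85) after mean centring and Snora47 (−0.53) without set B and cardiomyocytes. All of these features were singled out after their values were seen.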
